A study of Mus musculus with 2 samples.

Results

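Podoplanin (Pdpn), integrin β4 (Itgb4), integrin α6 (Itga6), the leukemia inhibitory factor receptor (Lifr) and atypical chemokine receptor 4 (Ackr4) are 5 of the 55487 genes in the deposited matrix. They were chosen by name, as genes linked to immature medullary thymic epithelial cells (mTEC) or to the antibodies used to sort the cells, and all 5 were among the 15533 genes abundant enough to test. Messenger RNA was measured, and surface protein was not analysed here. Pdpn, Itgb4, Itga6 and Lifr had their highest levels in cells rich in Ccl21a, a chemokine made by immature mTEC. Ackr4 went against the label of an immature mTEC gene: it was at or below 2.1 UMI counts per 1000000 (CPM) in those cells and highest in tuft-like cells.

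Thymic epithelium displays self antigens to developing T cells, and mTEC that switch on the programs of other tissues are called mimetic cells. Podoplanin is a mucin-type membrane glycoprotein of lymphatic endothelium, fibroblastic stroma and some epithelia that binds the platelet receptor CLEC-2 and is linked to the actin cytoskeleton by ezrin-family proteins. The α6 and β4 chains pair into a laminin receptor that anchors basal epithelial cells to the basement membrane through hemidesmosomes, and α6 can pair with β1 instead. LIFR joins gp130 (Il6st) to receive LIF and related cytokines and signals through JAK kinases and STAT3. ACKR4 binds CCL19, CCL21 and CCL25 without G protein signalling and takes them up for degradation.

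The study compared thymic mimetic cells of C57BL/6 (B6), BALB/c and NOD mice, with 2 female mice of each strain aged 6 weeks. Thymus cells of all 6 mice were depleted of CD45-positive leukocytes and flow sorted as mTEC low in MHC class II that lacked surface podoplanin and CD104, the β4 integrin chain. Each mouse carried its own hashtag antibody, and the mice were pooled into 1 droplet library with 3′ capture. No mutant allele, transgene or drug is named for any group, so the strains themselves are the groups, and 2 mice set the spread of each. The hashtag label gives both NOD hashtags the same replicate number; they were kept as 2 mice because the design text and the label of the RNA library give 2 mice of each strain, and the NOD spread rests on that.

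Of 3447 barcodes, 2527 passed the quality limits, 1705 were assigned to a mouse, and 1645 of these met no leukocyte gate and are called epithelial below. The mice gave 113 to 580 epithelial cells and between 2359367 and 9774071 UMIs each, and UMI counts are distinct captured RNA molecules. Levels are in CPM over the summed cells. Cells were placed in 12 epithelial gates by marker genes, none of which is one of the 5 genes. The 3 gates with the most Ccl21a are called Ccl21a-rich: the Ccl21a-high gate (222 cells; 7477 CPM of Ccl21a), the collagen VI-positive gate (209 cells; 7301 CPM) and the Mybpc1-positive gate (76 cells; 4642 CPM). Collagen VI-positive and Mybpc1-positive cells could also meet the Ccl21a-high markers and were then not counted in that gate. Together the Ccl21a-rich gates hold cells whose markers overlap. Of epithelial cells these 3 gates made up 4.31% and 8.0% for B6, 32.2% and 38.3% for BALB/c, and 54.0% and 57.0% for NOD mice. Tuft-like cells, chemosensory mimetics (493 cells), made up 51.7% and 39.1%, 29.0% and 28.6%, and 6.19% and 7.44% in the same order. The sort removed cells by 2 of the proteins studied here, so it can set these shares.

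Pdpn (ENSMUSG00000028583.14) lies on the minus strand of chromosome 4 at 143267431 to 143299564 (GENCODE M21, mm10). Its pooled level was 50.2 CPM in the Ccl21a-high gate, 43.4 CPM in the collagen VI-positive gate, 35.2 CPM in the Mybpc1-positive gate and 23.8 CPM in cycling cells. Then came 11.8 CPM in 11 muscle-like cells, which is 5 UMIs, and 4.0 CPM or less in each other gate. Tuft-like cells of the 4 mice with at least 10 of them had 0.76 and 0.85 CPM (B6) and 1.03 and 1.03 CPM (BALB/c). Collagen VI-positive cells had 43.3 and 40.7 CPM (BALB/c) and 43.7 and 44.5 CPM (NOD). The 4 mice lay close together, and no mouse of either gate reached the range of the other. The BALB/c mice read 53.7 and 20.9 CPM in the Mybpc1-positive gate, a spread that covers the collagen VI-positive range and overlaps the Ccl21a-high one. Of the gene's 370 epithelial UMIs, 292 (78.9%) came from the Ccl21a-rich gates, which held 30.8% of the cells and 23.0% of all UMIs.

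The bases just before the Pdpn start are shown because Pdpn and Lifr followed each other most closely among the 5 genes across cell types. The sequence is from RefSeq (GRCm38.p6), minus strand, chr4:143299565-143299814, with 1 E-box (CACGTG) in capitals that begins 144 bases before the start.
Pdpn: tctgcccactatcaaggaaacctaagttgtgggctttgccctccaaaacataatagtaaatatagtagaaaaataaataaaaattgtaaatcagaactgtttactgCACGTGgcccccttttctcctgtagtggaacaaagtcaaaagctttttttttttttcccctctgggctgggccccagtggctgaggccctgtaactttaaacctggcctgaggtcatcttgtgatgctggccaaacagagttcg
This window was 43.2% G and C with 2 CpG sites, against a median of 52.4% and 6 sites over 32817 mouse promoter windows of 250 bases. An E-box of these letters stood in 6.02% of those windows. Neither the NF-kB consensus searched (in 1.41% of windows) nor the AP-1 motif (TGANTCA, in 6.75%) was found on either strand.

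Itgb4 (ENSMUSG00000020758.15; chromosome 11, 115974709 to 116008412, plus strand) encodes the other protein of the sort. Its level was 229 CPM in the collagen VI-positive gate, 174 CPM in the Ccl21a-high gate and 121 CPM in the Mybpc1-positive gate. Microfold-like cells, named for gut epithelium that takes up luminal antigen, came next with 79.9 CPM. Ciliated-like cells had 58.8 CPM, cycling cells 56.1 CPM, tuft-like cells 24.7 CPM, keratinocyte-like cells 8.1 CPM and neuroendocrine-like cells 2.9 CPM. The collagen VI-positive gate read 251 and 241 CPM (BALB/c) and 181 and 259 CPM (NOD), and the Ccl21a-high gate 211 and 165 CPM (BALB/c) and 139 CPM (NOD mouse 2). Tuft-like cells read 24.4 and 18.6 CPM (B6) and 29.3 and 24.3 CPM (BALB/c). The first 2 gates overlapped, whereas tuft-like cells lay below both in each of these mice.

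Itga6 (ENSMUSG00000027111.16; chromosome 2, 71745616 to 71858416, plus strand) shared the top of this order but not the rest of it. It was 644 CPM in the Ccl21a-high gate, 643 CPM in the collagen VI-positive gate and 414 CPM in the Mybpc1-positive gate. Neuroendocrine-like cells, which express hormone-secretion genes, were the fourth with 261 CPM, and the other gates lay between 27.1 CPM in keratinocyte-like cells and 115 CPM in Aire/Fezf2-positive cells. By mouse, neuroendocrine-like cells had 277 and 312 CPM (B6) and 107 CPM (BALB/c mouse 1). The Ccl21a-high gate had 788 and 659 CPM (BALB/c) but 282 CPM in NOD mouse 2, which therefore fell into the neuroendocrine-like range.

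The ratio of the integrin chains separated neuroendocrine-like cells from the other gates. They had 273 Itga6 UMIs and 3 Itgb4 UMIs, or 91.0 Itga6 UMIs per Itgb4 UMI. In the 11 other gates the ratio ran from 1.38 in microfold-like cells to 3.71 in the Ccl21a-high gate, with 3.66 in tuft-like cells and 2.81 in collagen VI-positive cells. The neuroendocrine-like value rests on few Itgb4 UMIs.

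Lifr (ENSMUSG00000054263.12; chromosome 15, 7090614 to 7197489, plus strand) had 1104 CPM in the collagen VI-positive gate, 678 CPM in the Ccl21a-high gate and 421 CPM in the Mybpc1-positive gate. The next were 11 muscle-like cells with 123 CPM and cycling cells with 70.7 CPM, and tuft-like cells had 42.2 CPM. Keratinocyte-like cells, which express cornified-layer genes, were lowest with 7.7 CPM. Collagen VI-positive cells read 1113 and 1064 CPM (BALB/c) and 1125 and 1180 CPM (NOD). The Ccl21a-high gate read 818 and 687 CPM (BALB/c) and 303 CPM (NOD mouse 2), and no mouse of it reached the collagen VI-positive range. Of 6151 epithelial Lifr UMIs, 5126 (83.3%) came from the Ccl21a-rich gates.

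The RefSeq promoter windows used here include 2 Lifr starts, both inside the gene span given above. Windows before these starts are shown because they differ in base composition. Both are on the plus strand of GRCm38.p6, at chr15:7129322-7129558 and chr15:7140292-7140541, and 2 GC boxes (GGGCGG) in the first are in capitals, beginning 78 and 67 bases before the start. The last 13 bases before the first start lie in an annotated Lifr exon and are not printed.
Lifr, GC-rich start: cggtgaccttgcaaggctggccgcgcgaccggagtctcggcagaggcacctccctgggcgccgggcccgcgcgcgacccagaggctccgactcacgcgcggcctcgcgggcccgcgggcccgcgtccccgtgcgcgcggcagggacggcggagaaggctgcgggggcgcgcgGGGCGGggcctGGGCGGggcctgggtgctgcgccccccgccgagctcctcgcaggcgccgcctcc
Lifr, inner start: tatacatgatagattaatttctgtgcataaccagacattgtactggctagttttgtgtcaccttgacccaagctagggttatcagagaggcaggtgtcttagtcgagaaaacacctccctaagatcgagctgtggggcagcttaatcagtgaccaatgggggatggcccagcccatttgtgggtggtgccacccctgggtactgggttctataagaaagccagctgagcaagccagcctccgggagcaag
The 250 bases before the first start were 82.4% G and C with 43 CpG sites, a higher G and C content than in 99.4% of the promoter windows. Those before the inner start were 50.8% G and C with 3 CpG sites. A GC box stood in 32.7% of all windows. Counts per gene do not tell which start was used.

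Ackr4 (ENSMUSG00000079355.5; chromosome 9, 104084157 to 104126933, minus strand) had 43.3 CPM in tuft-like cells. Muscle-like cells had 23.6 CPM, which is 10 UMIs in 11 cells, and the other gates had 2.9 CPM or less. No Ackr4 UMI was found in neuroendocrine-like or Mybpc1-positive cells, so tuft-like cells were at least 15.1-fold and at least 18.8-fold higher, against a floor of 3 UMIs over each gate. Tuft-like cells had 48.8 and 60.03 CPM (B6) and 43.8 and 36.9 CPM (BALB/c). The B6 mice lay above the BALB/c mice, with a narrow gap. The NOD mice had only 7 and 9 tuft-like cells, which together held 7 Ackr4 UMIs, or 18.6 CPM with an exact 95% Poisson interval of 7.5 to 38.3. Intervals here cover counting error only. That interval lies below the pooled B6 value of 54.1 CPM and its interval of 45.4 to 64.1, and it overlaps the BALB/c interval of 34.2 to 45.6.

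Ackr4 lies within Acad11 on the opposite strand, and the strand setting of the counting is not stated. Acad11 was spread more evenly, with 16.0 CPM in tuft-like cells of B6, 15.2 of BALB/c and 18.6 of NOD, and 26.2 CPM in collagen VI-positive cells of BALB/c. Of 426 epithelial Ackr4 UMIs, 335 (78.6%) came from tuft-like cells, which were 29.97% of the cells. The Ccl21a-rich gates gave 10 (2.35%). Tuft-like cells with at least 2 UMIs of Sparc, a matricellular protein gene (50 cells), had 33.0 Ackr4 CPM (exact 95% Poisson interval 24.2 to 44.1). Those with 0 Sparc UMIs (419 cells) had 46.0 CPM (40.7 to 51.9).

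**Figure D1:**
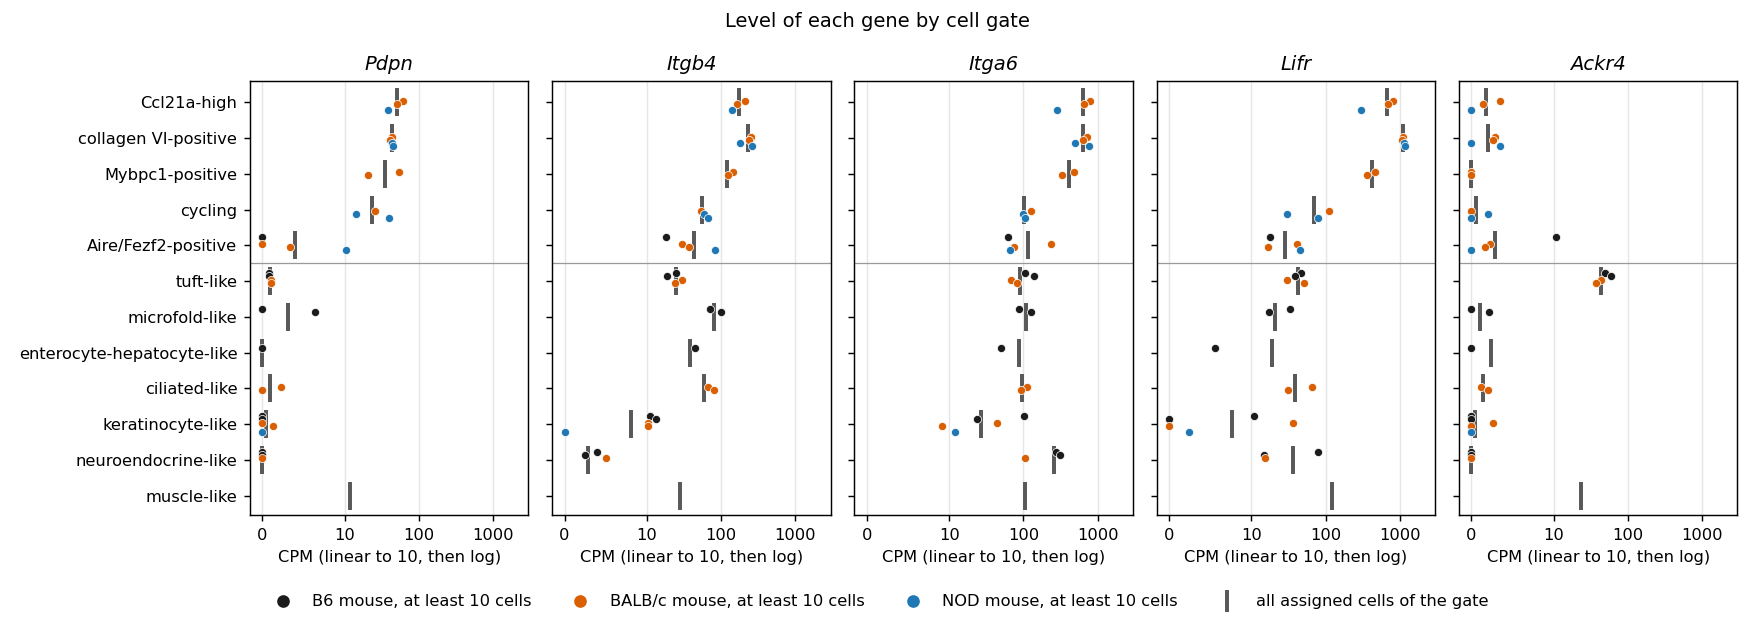
Level of each of the 5 genes (horizontal axis, CPM, linear up to 10 and logarithmic above) in the 12 marker gates (rows), with points for mice with at least 10 cells in the gate and vertical ticks for all assigned cells of it. Pdpn, Itgb4, Itga6 and Lifr have their ticks farthest right in the Ccl21a-high, collagen VI-positive and Mybpc1-positive gates, and Ackr4 has its own in the tuft-like gate at 43.3 CPM.

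Differences between gates were tested on sums per gate and mouse with the mouse as a block (edgeR quasi-likelihood test, Benjamini-Hochberg adjustment over 13627 genes). In Ccl21a-high against tuft-like cells 32.6% of all genes were called at an adjusted p of 0.05, and all 5 genes were. Pdpn was higher by 5.24 on the log2 scale (SE 0.63), Lifr by 3.83 (0.64), Itga6 by 3.06 (0.48) and Itgb4 by 2.69 (0.33). Ackr4 was lower, with a log2 difference of -4.07 (0.69). The gates shared 2 of the mice: 3 Ccl21a-high sums stood against 4 tuft-like sums.

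Collagen VI-positive against tuft-like cells gave calls for 32.7% of all genes and again for all 5. The log2 differences were 4.98 for Pdpn, 4.83 for Lifr, 3.42 for Itga6, 3.04 for Itgb4 and -3.63 for Ackr4. Without BALB/c mouse 2 the adjusted p of Ackr4 was 0.0794, the edgeR call was lost, and without each other mouse it held. Collagen VI-positive against Ccl21a-high cells, a contrast chosen after the data were seen like those that follow, called 0.726% of all genes and none of the 5. Lifr had the largest of these differences, 1.0 on the log2 scale with an adjusted p of 0.530 in edgeR.

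Microfold-like cells, tested in B6 mice (29.8% of all genes called against tuft-like cells), separated the integrin chains. Itgb4 was higher than in tuft-like cells by 2.30 on the log2 scale (SE 0.40, edgeR adjusted p 6.2e-05), while Itga6 differed by 0.09 (0.57, adjusted p 0.948). Neuroendocrine-like cells (23.8% of all genes called) showed the opposite pair: Itgb4 was lower with a log2 difference of -2.94 (0.66, edgeR adjusted p 0.00142) and Itga6 differed by 0.72 (0.47, adjusted p 0.303). Both Itga6 differences missed the threshold, which does not show equal levels. Keratinocyte-like cells lay below Ccl21a-high cells in Pdpn (-6.07), Lifr (-5.99), Itga6 (-4.39) and Itgb4 (-4.03), all called in a contrast where 36.2% of genes were.

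**Figure D2:**
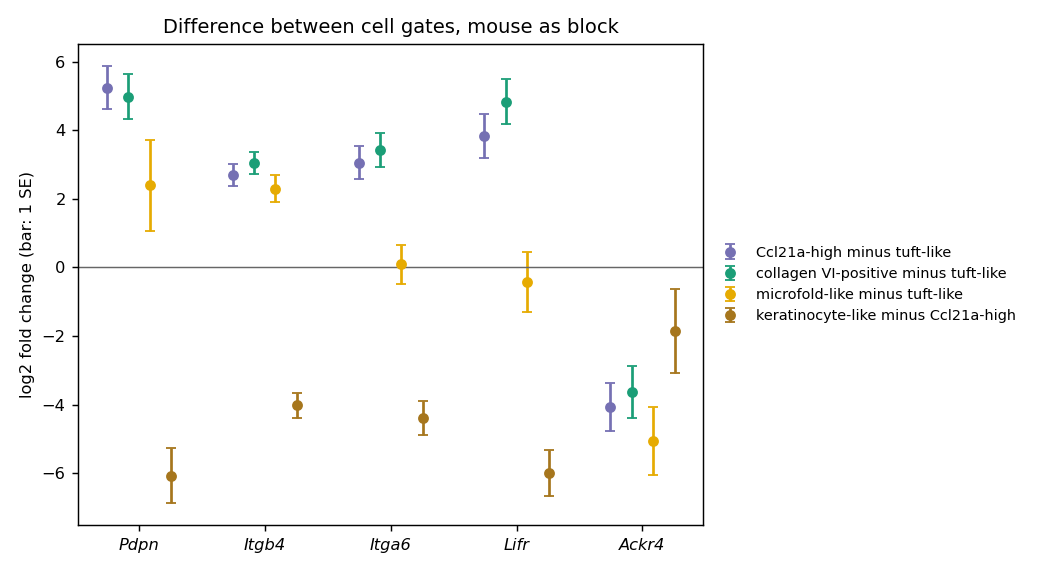
Fitted log2 differences between marker gates (vertical axis) for the 5 genes, with bars for 1 SE, for Ccl21a-high, collagen VI-positive and microfold-like cells against tuft-like cells and for keratinocyte-like against Ccl21a-high cells. Pdpn, Itgb4, Itga6 and Lifr lie above 0 and Ackr4 below it in both contrasts of Ccl21a-rich gates with tuft-like cells, and the microfold-like points of Itgb4 (2.30) and Itga6 (0.09) lie apart.

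RNA of other cell types was measured in the same gates. Fibroblast markers, a podoplanin-bearing stromal type, summed to 71.6 CPM in the Ccl21a-high gate, 67.0 in the collagen VI-positive gate, 65.4 in the microfold-like gate and 4.4 in tuft-like cells. Of the 6 fibroblast markers, 5 had UMIs in both Ccl21a-rich gates named here and Col1a1 was at 0. Pericyte markers summed to 580 and 602 CPM in those gates, 1046 CPM in microfold-like cells and 16.8 CPM in tuft-like cells. Markers of B or plasma cells summed to 437 CPM in the Ccl21a-high gate, 1725 CPM in the collagen VI-positive gate and 190 CPM in tuft-like cells, with Mzb1 at 0 in all 3. Myeloid or dendritic markers summed to 47.8, 233 and 17.4 CPM, and mesothelial markers to 81.2, 75.6 and 6.1 CPM with Upk3b at 0 in all 3. The leukocyte gene Ptprc had 6.8, 1.7 and 29.8 CPM. Blood endothelial markers summed to 3.9, 3.3 and 6.1 CPM, with Cdh5 and Kdr at 0 in all 3. Other types were higher in tuft-like cells. Lymphatic endothelial markers summed to 3.9, 6.2 and 126 CPM, and in tuft-like cells Lyve1 and Flt4 were at 0, which leaves Prox1. Erythroid markers summed to 1.1, 2.1 and 231 CPM, and cortical thymic epithelial markers to 47.8, 53.7 and 27.3 CPM. The part of these markers in the results was not tested. Pan-epithelial genes summed to 3110 and 3658 CPM against 7611 CPM in tuft-like cells.

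Shares of cells with a UMI were compared after thinning each cell to 3000 UMIs. Pdpn was found in 14.4% of 194 Ccl21a-high cells, 13.0% of 200 collagen VI-positive cells and 0.207% of 483 tuft-like cells. The 424 barcodes in leukocyte gates had Pdpn in 1.42%, Itgb4 in 0.708%, Lifr in 2.83% and Ackr4 in 1.18%. The Pdpn share in tuft-like cells, 1 cell, does not stand above that of the leukocyte barcodes, where most Pdpn UMIs were in myeloid or dendritic cell-like barcodes. Before thinning, median depths over all cells were 9036, 9104 and 12482 UMIs in these 3 epithelial gates and 29517 in the leukocyte barcodes, and 28, 9, 10 and 21 shallower cells were left out.

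Itgb4 was found in 43.8% of Ccl21a-high, 51.5% of collagen VI-positive and 6.63% of tuft-like cells. Lifr was found in 77.3%, 82.5% and 9.32%. Ackr4 was found in 11.4% of tuft-like cells and in 0 of the 194 and 200 cells of the other 2 gates. Unthinned, it was in 39.4% of tuft-like cells and 5.17% of the leukocyte barcodes, so detection followed depth. Itga6 was in 80.4%, 73.0% and 24.0%, and in 12.3% of leukocyte barcodes, some of which carry this integrin themselves.

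RNA for at least 1 of the 2 proteins that the sort selected against was found in 55.5% of thinned collagen VI-positive cells, 52.6% of Ccl21a-high cells, 44.0% of Mybpc1-positive cells and 6.83% of tuft-like cells. Both integrin chains were found together in 82 of 200 collagen VI-positive cells, 73 of 194 Ccl21a-high cells and 5 of 483 tuft-like cells. The sort read protein on the surface and these shares read RNA.

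**Figure D3:**
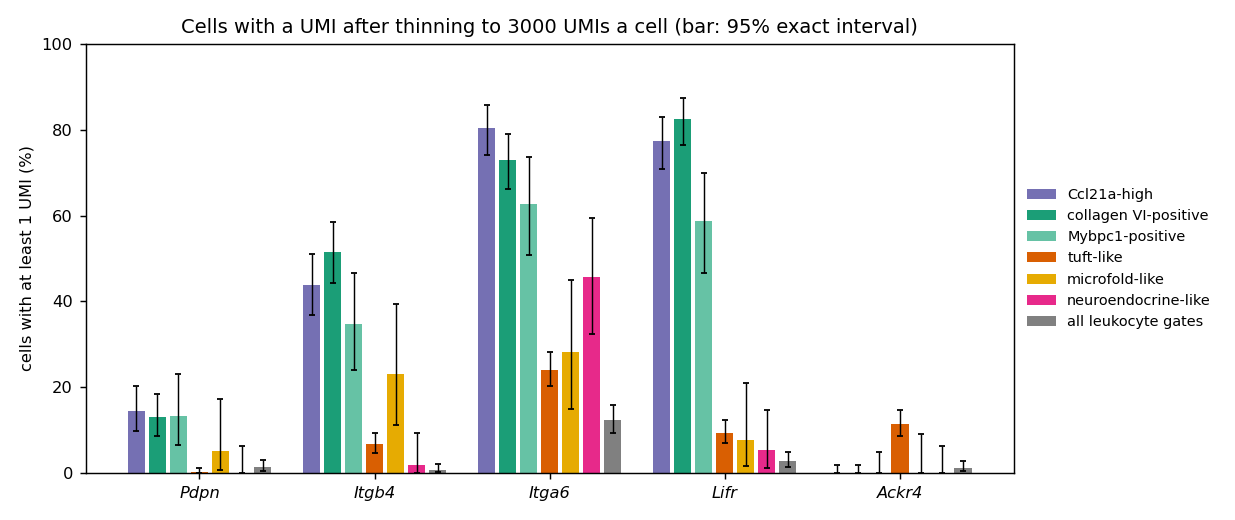
Share of cells with at least 1 UMI of each gene (vertical axis, percent) in 6 epithelial gates and in all leukocyte barcodes after thinning to 3000 UMIs a cell, with exact 95% binomial intervals as bars. The Ccl21a-rich gates stand above the leukocyte barcodes for Pdpn, Itgb4, Itga6 and Lifr, and tuft-like cells do for Ackr4 (11.4% against 1.18%).

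Over all epithelial cells of a mouse, Pdpn, Itgb4, Itga6 and Lifr were lowest in B6, and Ackr4 was lowest in NOD. In such sums fewer cells of a type and less RNA per cell cannot be told apart, and the gate shares above moved in the same order. The 3 strain comparisons share mice and come from 1 edgeR fit over 15533 genes. BALB/c against B6 called 11.0% of all genes, NOD against B6 28.0%, and NOD against BALB/c 9.03%.

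For Pdpn, B6 mice read 1.97 and 3.25 CPM, BALB/c mice 16.3 and 14.2 CPM, and NOD mice 16.9 and 27.1 CPM. Both B6 mice lay below the other 4, and NOD and BALB/c mice did not overlap but lay close. Pdpn was higher than in B6 by 2.52 on the log2 scale in BALB/c (SE 0.36, edgeR adjusted p 0.00726) and by 3.16 in NOD (0.37, 0.00166). Without B6 mouse 1 the BALB/c value had an adjusted p of 0.0501 in edgeR, which misses the threshold. NOD exceeded BALB/c by 0.64 (0.29, edgeR adjusted p 0.211), not past it.

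For Itgb4, B6 mice read 29.9 and 39.2 CPM, BALB/c mice 77.5 and 74.0 CPM, and NOD mice 88.7 and 103 CPM. Itga6 read 138 and 163 CPM, 253 and 224 CPM, and 225 and 301 CPM in the same order. For both chains the B6 mice lay below the others, and for Itga6 the BALB/c and NOD mice overlapped. Itgb4 was higher than in B6 by 1.12 in BALB/c (SE 0.16, edgeR adjusted p 0.0072) and by 1.57 in NOD (0.16, 0.00119). Itga6 was higher by 0.65 in BALB/c (0.16, edgeR adjusted p 0.0447) and by 0.90 in NOD (0.16, 0.00773). The BALB/c value of Itga6 lost its call without any 1 of the B6 or BALB/c mice, with adjusted p up to 0.214, and the NOD value without B6 mouse 1 (0.0567).

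For Lifr, B6 mice read 56.1 and 69.0 CPM, BALB/c mice 241 and 242 CPM, and NOD mice 347 and 385 CPM, so the strains did not overlap. It was higher than in B6 by 1.94 in BALB/c (SE 0.14, edgeR adjusted p 0.00103) and by 2.65 in NOD (0.14, 0.000163). NOD exceeded BALB/c by 0.71 (0.13, edgeR adjusted p 0.0219). That last call was lost without BALB/c mouse 1 (edgeR adjusted p 0.138), BALB/c mouse 2 (0.102) or NOD mouse 2 (0.0556).

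For Ackr4, B6 mice read 22.3 and 20.02 CPM, BALB/c mice 15.6 and 16.0 CPM, and NOD mice 2.48 and 3.39 CPM. The NOD mice lay far below the other 4, with log2 differences of -2.74 from B6 (SE 0.28, edgeR adjusted p 0.00116) and -2.32 from BALB/c (0.28, 0.00646). BALB/c differed from B6 by -0.43 (0.21, adjusted p 0.231 in edgeR), which missed the threshold. Tuft-like cells were 6.19% and 7.44% of the NOD epithelial cells.

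**Figure D4:**
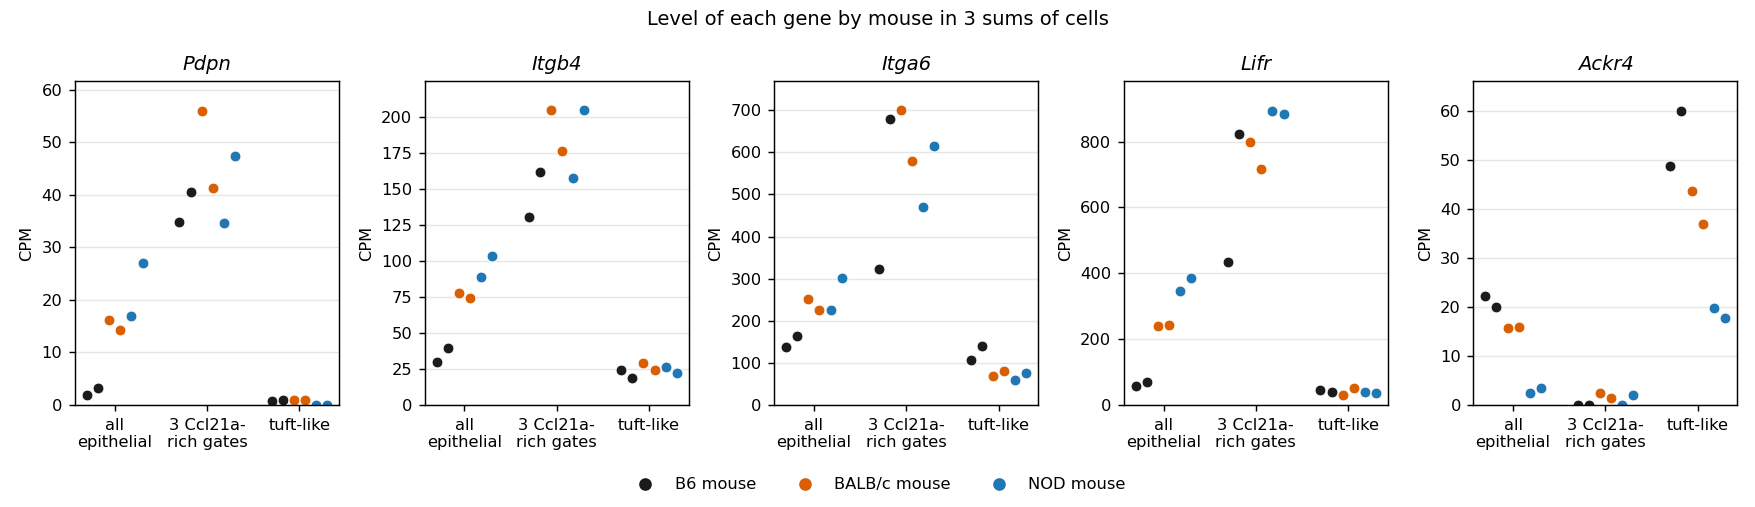
Level of each of the 5 genes (CPM, linear axis) in each of the 6 mice (points), over all epithelial cells, over the 3 Ccl21a-rich gates and in tuft-like cells, where the NOD mice have 7 and 9 cells. Over all epithelial cells the B6 mice are lowest for Pdpn, Itgb4, Itga6 and Lifr, and the NOD mice are lowest for Ackr4 at 2.48 and 3.39 CPM.

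Levels were also read within the Ccl21a-rich gates of each mouse, without a test. For Pdpn, B6 mice read 34.8 and 40.5 CPM there from 9 and 18 cells, BALB/c mice 56.0 and 41.3 CPM, and NOD mice 34.6 and 47.3 CPM. Lifr read 436 and 825 CPM, 799 and 718 CPM, and 894 and 885 CPM in the same order. For Pdpn the strains overlapped, and for Lifr the low value was B6 mouse 1, with 50 UMIs. Itgb4 read 131 and 162 CPM (B6), 204 and 176 CPM (BALB/c), and 157 and 205 CPM (NOD). Itga6 read 322 and 678 CPM, 701 and 579 CPM, and 469 and 614 CPM, about as wide a range in fold as over all epithelial cells. The strains overlapped for Itga6, and for Itgb4 B6 mouse 2 lay within the NOD range.

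In collagen VI-positive cells NOD and BALB/c mice were tested against each other, with 2.84% of 8314 genes called. None of the 4 genes tested was among them: the log2 differences were 0.21 for Pdpn, 0.21 for Lifr, 0.03 for Itga6 and -0.04 for Itgb4. A fit over sums per gate and mouse with a term for the gate (limma voom) gave no call for any of the 5 genes in any of the 3 strain comparisons. Of all 13627 genes in that fit, it called only 403 for BALB/c against B6, 420 for NOD against B6 and 469 for NOD against BALB/c. The absence of calls among 5 genes is therefore near the background. The differences from B6 in that fit were 0.33 in BALB/c and 0.43 in NOD for Pdpn, and 0.28 and 0.23 for Itgb4. They were -0.069 and -0.34 for Lifr, and -0.62 and -0.999 for Itga6, the opposite sign to the epithelial sums. No B6 sum of a Ccl21a-rich gate reached 10 cells, so that fit compares B6 through the other gates. Nor did a NOD sum of tuft-like cells (7 and 9 cells). For Ackr4 the fit therefore compares NOD only through gates with 2.9 CPM or less, and it cannot decide on a difference in tuft-like cells.

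In tuft-like cells B6 and BALB/c were compared, with 22.9% of 11297 genes called. Itga6 read 106 and 140.3 CPM (B6) and 67.9 and 81.0 CPM (BALB/c), with no overlap. It was lower in BALB/c, with a log2 difference of -0.75 (SE 0.17, edgeR adjusted p 0.00294), the opposite sign to that over all epithelial cells. The call held under each alternative run. Ackr4 differed by -0.47 (0.20, edgeR adjusted p 0.0930), Itgb4 by 0.26 (0.27, 0.538) and Lifr by -0.07 (0.25, 0.870), none past the threshold. Pdpn was too low there to test.

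The partners of the integrin chains were followed in a list of 19 other laminin receptor and hemidesmosome genes, of which 17 were tested between gates. In Ccl21a-high against tuft-like cells 7 were higher and 2 lower (32.6% of all genes called). The median log2 difference was 0.83, against -0.02 over all genes tested. In collagen VI-positive cells 8 were higher and 2 lower (median 1.22, all genes -0.01, 32.7% of all genes called). Lama3 and Lamb3, which encode chains of the laminin that hemidesmosomes bind, were among those that rose, with Lama3 higher by 5.14 and 5.70 and Lamb3 by 5.67 and 6.04 in the 2 contrasts. Col17a1, the transmembrane collagen of hemidesmosomes, rose by 4.68 and 5.40, and Dag1, the dystroglycan laminin receptor, by 1.37 and 2.25. Itga3, which pairs with β1, had differences of -1.17 and -1.01, and Itgb6 of -2.63 and -3.36, both called. Itgb1, the tetraspanin Cd151 and the cytoskeletal linker Plec were not called.

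Across strains, 5 of the 19 were higher and 1 lower in BALB/c than in B6 (median 0.68, all genes 0.01, 11.0% of all genes called). In NOD against B6, 7 were higher and 2 lower (median 0.70, all genes -0.03, 28.0% of all genes called). Lama3 was higher than in B6 by 1.52 in BALB/c and 1.85 in NOD, and Cd151 by 0.70 and 1.03. In NOD against BALB/c 2 were lower and none higher, near the 9.03% of all genes called.

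Of 13 tested genes around the LIF receptor, 4 were higher and none lower in Ccl21a-high than in tuft-like cells (median 0.19, all genes -0.02), a share near the 32.6% of all genes called. In collagen VI-positive cells 5 were higher and none lower (median 0.49, all genes -0.01), likewise near the 32.7% of all genes. Il6st, the gp130 chain that Lifr needs, had 133 CPM in collagen VI-positive, 98.4 CPM in Ccl21a-high and 47.8 CPM in tuft-like cells, differences of 1.49 and 1.11 against tuft-like cells. Osmr, the oncostatin M receptor, was higher by 5.24 and 4.56, and Il11ra1, the interleukin-11 receptor, by 2.98 and 3.49. Cish, a feedback inhibitor of cytokine signalling, was higher by 1.22 and 0.83. The ligand gene Lif had 2.1 CPM over all epithelial cells.

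In the strain comparisons 2 of the 13 were higher and 1 lower in BALB/c than in B6 (all genes 11.0% called), and 5 higher and 1 lower in NOD than in B6 (28.0%). Il11ra1 was higher than in B6 by 1.26 in BALB/c and 3.15 in NOD, and Osmr by 1.03 and Il6st by 0.54 in NOD. Il6ra, the interleukin-6 receptor, had differences of -0.63 and -0.93.

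RNA of the chemokines that ACKR4 takes up was lower in tuft-like cells than in several other gates. Ccl21a had 32.0 CPM in tuft-like cells against 7477 in the Ccl21a-high gate, which it helps to define. Ccl19 had 0.6 CPM in tuft-like and 157 CPM in Aire/Fezf2-positive cells, and was higher by 6.68 in Ccl21a-high and 5.92 in collagen VI-positive than in tuft-like cells. Ccl25 had 482 CPM in microfold-like, 324 CPM in Aire/Fezf2-positive, 212 CPM in Ccl21a-high and 9.2 CPM in tuft-like cells. The 11 muscle-like cells, second for Ackr4, had 391 CPM of Ccl21a, 42.4 CPM of Ccl19 and 28.3 CPM of Ccl25. Arrb1, a β-arrestin, was called lower in both gates than in tuft-like cells (-1.54 and -2.42). Without the gate marker Ccl21a, 3 of 6 genes of the list were called in the Ccl21a-high contrast, 2 higher and 1 lower, and 2 of 6 in the collagen VI-positive contrast, 1 in each direction, beside 32.6% and 32.7% of all genes, so the second is at the background.

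Across strains, Ccl21a was higher than in B6 by 2.11 in BALB/c and 2.16 in NOD, and Ccl20, a microfold-like marker, had differences of -3.01 and -6.74. In all, 1 of 8 genes of the ACKR4 list was higher and 3 lower in BALB/c than in B6 (median -0.25, all genes 0.01, 11.0% of all genes called), and 3 higher and 2 lower in NOD than in B6 (median -0.42, all genes -0.03, 28.0% called).

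Among 11 tested podoplanin partners, 3 were higher and 3 lower in Ccl21a-high than in tuft-like cells (median -0.14, all genes -0.02, 32.6% of all genes called). In collagen VI-positive cells 2 were higher and 2 lower (median -0.17, all genes -0.01), near the 32.7% of all genes called. Cd82, a tetraspanin, was higher by 1.78 and 1.62, and Rock2, a kinase that acts on the actin cytoskeleton, had differences of -1.40 and -1.54. The platelet receptor gene Clec1b had 0.7 CPM over all epithelial cells. In the strain comparisons 1 of the 11 was lower in BALB/c than in B6, near the 11.0% of all genes called, and 2 were higher and 3 lower in NOD than in B6, where 28.0% of all genes were called.

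**Figure D5:**
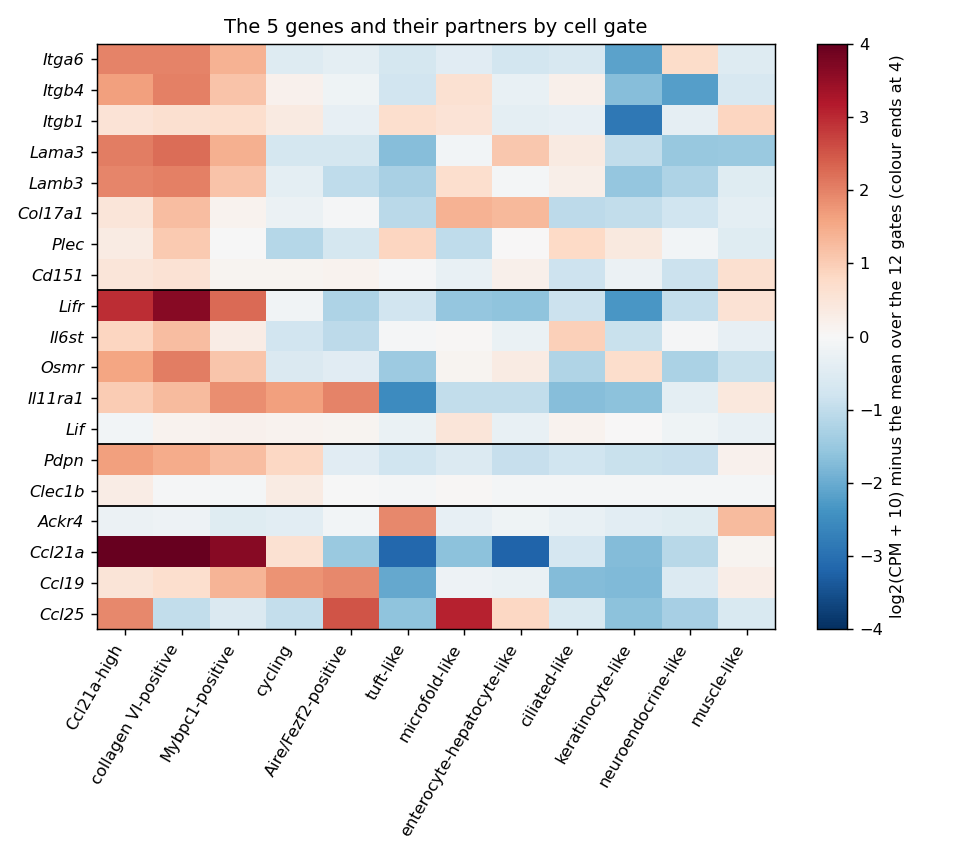
Heat map of the 5 genes and their partners (rows, grouped by the gene they act with) over the 12 marker gates (columns), coloured by log2(CPM + 10) minus the mean over the gates, with the colour ending at 4. Lama3, Lamb3 and Osmr are high in the collagen VI-positive column as Lifr, Itga6 and Itgb4 are, while Ccl21a and Ccl19 are low in the tuft-like column where Ackr4 is high.

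Other markers of immature mTEC, apart from those that define the gates, did not all follow the 4 genes. Of 5 tested, 3 were higher and 2 lower than in tuft-like cells in both contrasts. Trp63, the basal epithelial transcription factor, was higher by 4.72 and 5.13. The claudin gene Cldn3 had differences of -3.67 and -4.28. Of 11 genes of mTEC maturation, 9 were higher in Ccl21a-high and 8 in collagen VI-positive than in tuft-like cells, and none was lower. In these contrasts 32.6% and 32.7% of all genes were called. Microfold-like cells (9 higher) and neuroendocrine-like cells (8 higher) also lay above tuft-like cells in this list, with none lower. Among the 11, Cd40 was higher by 5.11 and 4.39 and the MHC class II regulator Ciita by 5.10 and 5.11. Cd40 had 180 CPM in Aire/Fezf2-positive, 65.9 CPM in Ccl21a-high and 1.4 CPM in tuft-like cells.

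The genes with the most similar levels were found by correlation of log2(CPM + 10) over the 10 gates with at least 30 cells. For Pdpn they were Gjc1 (Pearson r 0.99), S1pr3 (0.98) and Poglut2 (0.98). For Itgb4 they were Cald1 (0.96), Col4a2 (0.95) and Il7 (0.93), and for Itga6 they were Fgf13, Tox and Lpp (0.97 each). For Lifr they were Kirrel, Sdk2 and Wfikkn2 (0.98 each). For Ackr4 they were Chrdl1 (0.996), Pik3cg (0.99) and Rflna (0.99). Among these 10 gates Ackr4 was above 2.9 CPM only in tuft-like cells, so its r values rest on that gate. The share of tested genes with r above 0.9 was 2.09% for Ackr4, 1.13% for Lifr, 0.843% for Pdpn, 0.348% for Itga6 and 0.0644% for Itgb4. Among the 5 genes, Lifr and Pdpn had an r of 0.92, Itga6 and Lifr 0.91, and Itga6 and Itgb4 0.66, while Ackr4 had -0.26 to -0.11 with the others. These points come from 1 library and share its mice.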

How the data were processed

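For each barcode the authors deposited UMI counts of genes and hashtags, as whole numbers without normalization, made with Cell Ranger 7.0.0 on mm10, per the submitters' processing notes. The annotation release and the strand setting of the counting are not given in the sources used here. Coordinates are those of GENCODE M21 (mm10), matched by gene identifier without its version.

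Barcodes with at least 500 genes and under 15% mitochondrial UMIs were kept. A barcode was assigned to a mouse when it had at least 100 UMIs of the pool's 6 hashtags and the leading one held at least 80% of them; 9 hashtag features of the matrix were not used. Barcodes with mixed hashtags were thereby dropped, and no doublet caller was run. Cells meeting several mimetic or leukocyte gates were kept apart, except that microfold-like cells could also meet the enterocyte-hepatocyte-like gate. A cell that met the Ccl21a-high gate and also the collagen VI-positive, the Mybpc1-positive or a mimetic gate was not counted as Ccl21a-high. The Ccl21a-rich gates thus split cells whose markers overlap. All mice shared 1 library, so no barcodes are shared between libraries. The gates use marker lists, and their thresholds (for tuft-like cells 5 of 12 markers and 20 UMIs per 10000) were set after the data were seen. Gates are named "-like" from these markers alone. The 5 genes and all gene lists were chosen with earlier results of these data known.

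UMI counts were summed per mouse, or per gate and mouse where at least 10 cells were present, and fitted with edgeR 4.0.16 in R 4.3.3 (quasi-likelihood test, TMM factors, filterByExpr, Benjamini-Hochberg adjustment over all genes, threshold 0.05). The mice are the replicates. An exact permutation of 2 mice against 2 cannot go below a two-sided p of 0.333, so single genes were read from the fit over all genes. Alternatives used median-of-ratios size factors in edgeR, a Wald test in DESeq2 1.42.0 and a voom fit in limma 3.58.1. The genes named are the 5 genes, the called genes of each list (at most 6 by adjusted p) with fixed partners, and 3 genes of like pattern for each gene. Markers used for a gate were left out of the list counts between gates. Shares have exact binomial intervals at 95% from scipy 1.17.1. Promoter windows are the 250 bases before a RefSeq start.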

Additional observations from a re-analysis of the deposited data

Results flagged for a closer look

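The 5 genes were also read in barcodes that entered no comparison, and the values above the limit that 3 UMIs set in each group are given here. In 172 tuft-like barcodes without an assigned mouse (limit 0.866 CPM), Ackr4 had 56.6 CPM, Itga6 112 CPM, Lifr 59.2 CPM, Itgb4 30.3 CPM and Pdpn 4.33 CPM. In 13 such Ccl21a-high barcodes (limit 13.6 CPM), Itga6 had 484 CPM, Lifr 294 CPM, Itgb4 118 CPM and Pdpn 22.6 CPM. In 15 such collagen VI-positive barcodes (limit 13.7 CPM), Lifr had 471 CPM, Itga6 439 CPM and Itgb4 119 CPM.

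Barcodes in leukocyte gates, assigned or not, also held RNA of these genes. In 143 thymocyte-like barcodes (limit 1.90 CPM), Itga6 had 106 CPM, Lifr 10.1 CPM and Itgb4 2.53 CPM. In 47 B or plasma cell-like barcodes (limit 1.41 CPM), Itga6 had 40.1 CPM, Lifr 16.0 CPM, Itgb4 9.90 CPM and Ackr4 2.83 CPM. In 221 myeloid or dendritic cell-like barcodes (limit 0.392 CPM), Itga6 had 11.4 CPM, Lifr 11.1 CPM, Pdpn 7.05 CPM, Itgb4 1.83 CPM and Ackr4 0.522 CPM.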

How the results depend on the processing

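Over the alternatives counted, 508 of 547 values of the 5 genes kept their direction and side of the threshold, 20 lost their call and 19 changed sign. Of 120 counts of called genes, 81 stayed within 1.5 times. A strain contrast within keratinocyte-like cells was also run and is neither reported nor counted. Nor are Pdpn and Lifr in microfold-like and neuroendocrine-like against tuft-like cells. Levels rest on few UMIs for Pdpn and Ackr4 outside their leading gates. Replicate numbers did not pair the mice (correlation of deviations 0.061 for B6 1 and BALB/c 1), and a fit of B6 and BALB/c with the replicate block called 2060 genes, with Itga6 at 0.66, and changed no call of the 5 genes.

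With a term for the gate (limma voom), 403 of 13627 genes were called for BALB/c against B6, 420 for NOD against B6 and 469 for NOD against BALB/c. The log2 differences were then, for BALB/c against B6, Pdpn 0.33, Itgb4 0.28, Itga6 -0.62 and Lifr -0.069. For NOD against B6 they were Pdpn 0.43, Itgb4 0.23, Itga6 -0.999, Lifr -0.34 and Ackr4 -0.74, and for NOD against BALB/c Itgb4 -0.053, Itga6 -0.38, Lifr -0.27 and Ackr4 -0.25. The cause was not tested, and NOD had no sum of tuft-like cells in that fit. Itga6 in BALB/c against B6 lost its call at a hashtag share of 90% (0.78), under 10% mitochondrial UMIs (0.63), with all assigned barcodes (0.70) and without ungated and several-gate cells (0.79). Without a filter on low counts, called genes were 3472 (BALB/c against B6), 3080 (NOD against BALB/c) and 420 (NOD against BALB/c in collagen VI-positive cells), and Lifr in tuft-like cells was 0.0074. Without cycling cells NOD against BALB/c called 887. With sums of at least 20 cells, neuroendocrine-like against tuft-like called 1754 and collagen VI-positive against Ccl21a-high 11, with Itga6 at -0.19. With a stricter gate, calls were 2801 for collagen VI-positive and 2345 for microfold-like against tuft-like cells, and 5 for collagen VI-positive against Ccl21a-high, with Itga6 at -0.15 and Ackr4 at -3.55.

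Leaving out each mouse in turn, calls over epithelial cells ranged from 383 to 2057 (BALB/c against B6), 2190 to 3587 (NOD against B6) and 275 to 1058 (NOD against BALB/c), and within gates from 1675 to 2564 (tuft-like) and 189 to 409 (collagen VI-positive). Against tuft-like cells they ranged from 2402 to 4414 (Ccl21a-high), 2476 to 4498 (collagen VI-positive), 2107 to 3323 (neuroendocrine-like) and 1990 to 4094 (microfold-like), and against Ccl21a-high cells from 0 to 101 (collagen VI-positive) and 2810 to 4873 (keratinocyte-like). Over epithelial cells the log2 differences ranged, for BALB/c against B6, from 0.54 to 0.78 for Itga6 and 2.22 to 2.92 for Pdpn, for NOD against B6 from 0.70 to 1.10 for Itga6, and for NOD against BALB/c from 0.64 to 0.78 for Lifr. Within gates they were -0.52 to 0.24 for Lifr (tuft-like), and -0.24 to 0.25 for Itga6 and -0.23 to 0.12 for Itgb4 (collagen VI-positive). Between gates they were -4.002 to -3.18 for Ackr4 (collagen VI-positive against tuft-like), -0.17 to 0.23 for Itga6 (microfold-like against tuft-like), and -0.018 to 0.93 for Ackr4 and -0.094 to 0.64 for Itga6 (collagen VI-positive against Ccl21a-high).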
